A study of Mus musculus with 64 samples.

Results

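The Hox genes encode homeodomain transcription factors that lie in 4 clusters, Hoxa to Hoxd, and are numbered by paralog group from the 3′ to the 5′ end of each cluster. Genes at the 3′ end are switched on earlier and reach further forward in the embryo than genes at the 5′ end, a property called colinearity. In the hindbrain, the low-numbered genes mark the segments called rhombomeres: Hoxb1 marks rhombomere 4, and the group 2 to group 4 genes mark segments around and behind it. The neural crest that leaves these segments, and the mesoderm beside them, carry part of the same code into the tissue around the ear.

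Hox members were all genes whose symbol is Hox, a cluster letter and a number and that had a probe set of their own on the array. They came to 31 of the 12393 genes with such a probe set: 9 in cluster a, 9 in cluster b, 6 in cluster c and 7 in cluster d. Hoxb8, Hoxd3 and Hoxd4 were measured only by 3 probe sets that carry a pair of Hox symbols and so are no members. The one shared by Hoxb8 and Hoxb7 stayed between 10.0 and 18.1 on the inner ear arrays and between 10.0 and 16.5 on the others. The members were spread over 37 probe sets, and a gene was represented by its probe set with the highest mean.

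All tissue came from CBA/J mouse embryos, an inbred strain, with no allele or treatment that differed between groups. Dissected inner ear epithelium was profiled in 29 groups on 58 arrays: the otic placode at E9, the otic vesicle at E9.5 and E10, the cochlear and vestibular parts separately at 4 stages from E10.5 to E12, and the cochlea, the saccule, and the utricle joined with the ampullae at 6 stages from E12.5 to E15. Tissue next to the inner ear, called non-inner ear tissue, was profiled in 3 groups on 6 arrays: E9, a pool of E9.5 to E10.5, and a pool of E11 to E15. Each group had 2 arrays, and each array held pooled tissue from litters other than those of its replicate (6 to 17 pieces for the inner ear, 8 and 9 for non-inner ear tissue at E9, 21 and 24 in the next pool, and 31 and 38 in the last). Epithelium was freed in dispase for 8 to 10 minutes up to E10.5 and for 20 to 25 minutes from E11 on, so that stage and enzyme time cannot be told apart across that boundary.

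Values are the authors' Affymetrix signals, linear and with a lowest value of exactly 10, which is called the floor here; a value at the floor is only an upper limit. Array medians ran from 64.7 to 107.6, replicate arrays correlated at 0.959 to 0.992, and 5.43% to 12.0% of probe sets were at the floor, with the E11 arrays at 9.81% to 12.0% and no other array above 8.63%. Differences are given as log2 changes of quantile-normalised signals with 16 added before the logarithm, which understates changes of dim genes, with the standard error (SE) and with the adjusted p of limma over all 12393 genes. A gene is called when its adjusted p is under 0.05 and its change is at least 1 on the log2 scale. Defining otic markers were higher in the inner ear than in non-inner ear tissue for 7 of 12 markers at E9, 8 of 12 at E9.5 to E10.5 and 9 of 12 at E11 to E15, and none was lower. Without normalization between arrays, the median of all genes in the comparison of inner ear with non-inner ear tissue moved to 0.29 at E9, 0.27 at E9.5 to E10.5 and 0.07 at E11 to E15.

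Most Hox genes gave little signal in the inner ear. Of the members' values, 20.2% were at the floor in the inner ear, against 4.77% of the values of all genes, and in non-inner ear tissue 10.8%, against 5.19%. Hoxa7, and Hoxa3 on its representing probe set, alone were at or above the array median on all 58 inner ear arrays, and Hoxc6 was on 55 of 58. The other Hoxa3 probe set was below the array median on every inner ear array, so that the level of Hoxa3 there is not settled. Hoxc4, by contrast, was at the floor on 56 of 58 inner ear arrays, Hoxd12 on 46, Hoxb1 on 39 and Hoxa2 on 34. Fewer cells that express a gene and less RNA per cell cannot be told apart in pooled tissue. The differences between the inner ear and its surroundings lay mostly in the low-numbered genes: of the 12 members of paralog groups 1 to 5, 5 were lower in the inner ear at E9, 8 at E9.5 to E10.5 and 4 at E11 to E15, and of the 19 members of groups 6 to 13, 0, 0 and 2 were. This division was made after the values were seen and the difference between the classes was not tested.

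**Figure D1:**
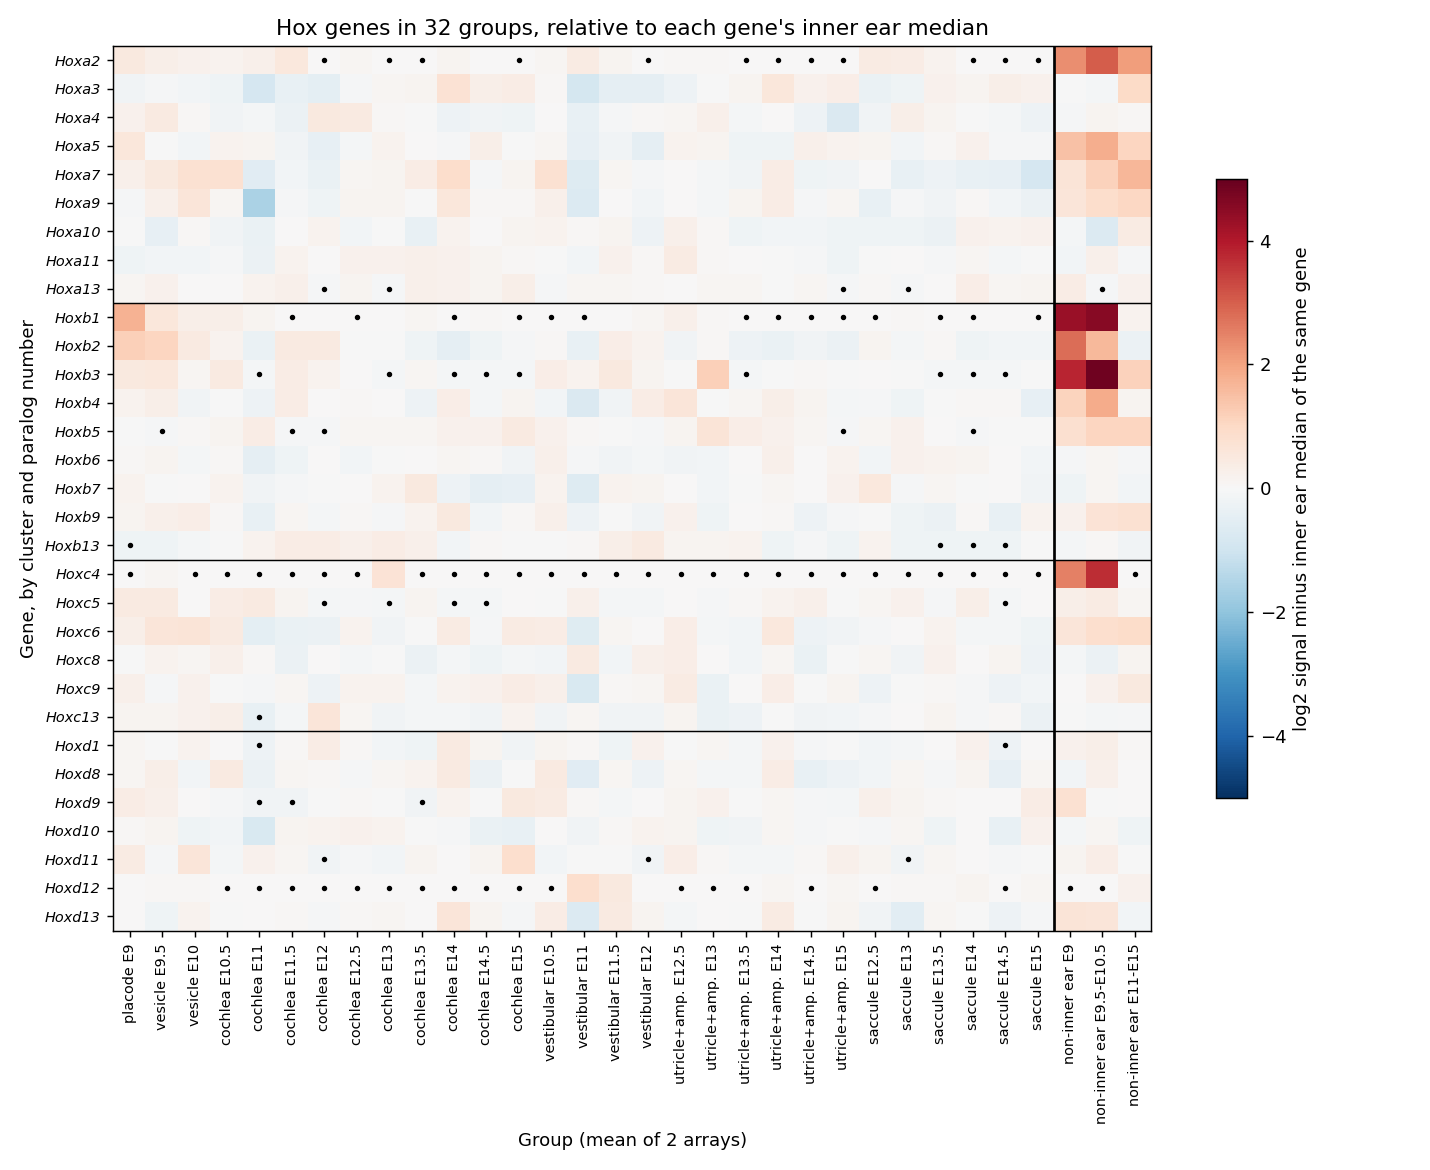
Each row is a Hox gene, by cluster and paralog number, and each column is a group (mean of 2 arrays); the colour is the log2 signal minus the median of the same gene over the 58 inner ear arrays, and a dot marks a group in which both arrays are at the floor of 10. The red cells gather in the non-inner ear columns on the right, in rows Hoxa2, Hoxb1 to Hoxb4 and Hoxc4.

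Promoter sequences are shown for 4 genes that were called lower in the inner ear at E9.5 to E10.5 and whose upstream window holds either of a pair of motifs of known Hox regulators. The set of promoter windows used here (GRCm38.p6) held 18 of the 31 members. It held 8 of the 11 members that were lower in the inner ear in at least 1 period. Hoxb2 and Hoxb3 had no window in this set, although the RefSeq annotation lists both genes. The 250 bases before the start were searched on both strands for TGATNNAT, the form of site that Hox proteins bind together with Pbx cofactors, and for AGGTCA, the core of the site of retinoic acid receptors. The sequences run 5′ to 3′ along the gene, with the match in capitals.
Hoxb1, chr11:96365508-96365757, plus strand: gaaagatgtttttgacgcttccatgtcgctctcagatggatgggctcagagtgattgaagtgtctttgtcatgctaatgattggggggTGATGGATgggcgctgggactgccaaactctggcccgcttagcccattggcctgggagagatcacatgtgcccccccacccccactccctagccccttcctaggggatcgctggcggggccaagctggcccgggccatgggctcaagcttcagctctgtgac
Hoxa2, chr6:52164832-52165081, minus strand: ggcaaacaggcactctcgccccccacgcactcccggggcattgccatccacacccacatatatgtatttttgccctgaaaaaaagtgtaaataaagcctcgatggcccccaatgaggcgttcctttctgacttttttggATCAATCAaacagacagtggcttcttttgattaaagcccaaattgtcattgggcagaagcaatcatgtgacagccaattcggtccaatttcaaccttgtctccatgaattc
Hoxc4, chr15:103034145-103034394, plus strand: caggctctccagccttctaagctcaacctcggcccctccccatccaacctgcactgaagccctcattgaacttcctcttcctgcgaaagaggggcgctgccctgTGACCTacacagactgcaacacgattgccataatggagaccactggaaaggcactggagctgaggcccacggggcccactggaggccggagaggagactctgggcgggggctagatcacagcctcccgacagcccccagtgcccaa
Hoxb4, chr11:96318017-96318266, plus strand: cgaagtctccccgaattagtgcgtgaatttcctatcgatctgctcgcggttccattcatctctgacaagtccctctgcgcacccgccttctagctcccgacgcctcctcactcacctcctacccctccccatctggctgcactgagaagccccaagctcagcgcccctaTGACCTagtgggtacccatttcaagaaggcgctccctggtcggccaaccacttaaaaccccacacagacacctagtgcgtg
TGATNNAT was found in Hoxb1, 154 bases before the start, and on the opposite strand in Hoxa2, 103 bases before it. Its only other match among the members was in Hoxd11, and 7.68% of all 32851 windows hold it. AGGTCA lies on the opposite strand in Hoxc4, 140 bases before the start, and in Hoxb4, 75 bases before it; Hoxd8 and Hoxd10 hold it too, as do 14.0% of all windows. These matches describe the letters only, and the arrays do not measure binding.

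At E9, 5 of the 31 Hox genes were lower in the otic placode than in the tissue around it and none was higher, beside 2.44% of all genes lower, 1.99% higher and 4.44% called in either direction. The genes were Hoxa2, Hoxb1, Hoxb2, Hoxb3 and Hoxc4. The median change was -0.12 over the Hox genes and -0.03 over all genes. At an unadjusted p under 0.05, 10 of the 31 passed.

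Hoxb3, a gene of the caudal hindbrain, read 27.1 and 27.2 in the placode and 340 and 308 in non-inner ear tissue. The placode arrays were nearly equal and far below both others. The change was -3.32 ± 0.23 (SE, n = 2 against 2, limma adjusted p = 1.45e-13).

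Hoxb1, the rhombomere 4 gene, read 143 and 46.4 in the placode and 437 and 431 in non-inner ear tissue. It was thus well above the floor in the placode, but its replicates there were far apart while the non-inner ear arrays were close together. The change was -2.57 ± 0.21 (SE, n = 2 against 2, limma adjusted p = 1.02e-11).

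Hoxb2 read 136 and 72.9 in the placode and 273 and 227 in non-inner ear tissue, a change of -1.60 ± 0.29 (SE, n = 2 against 2, limma adjusted p = 0.000154). It is the Hox gene of the segments from rhombomere 3 backwards, and its groups did not overlap. Fitted on the placode and E9 non-inner ear arrays alone, the same changes of Hoxb1 and Hoxb2 had limma adjusted p-values of 0.0628 and 0.0614.

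Hoxa2, which patterns rhombomere 2 and the second branchial arch, read 26.7 and 22.8 in the placode and 104 and 90.1 around it, with no overlap. It changed by -1.83 ± 0.15 (SE, n = 2 against 2, limma adjusted p = 1.72e-11).

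Hoxc4 was at the floor on both placode arrays and read 76.0 and 161 in non-inner ear tissue, so that the non-inner ear level was at least 11.1-fold higher (geometric mean of the deposited signals over the floor). The fitted change was -2.51 ± 0.21 (SE, n = 2 against 2, limma adjusted p = 1.19e-11). Its non-inner ear replicates differed from each other by more than those of the other 4 genes.

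Hoxa5, Hoxb5 and Hoxa9 had an adjusted p under 0.05 with changes under 1: -0.90 for Hoxa5, -0.80 for Hoxb5 and -0.65 for Hoxa9. Hoxb4 read 44.9 and 50.2 in the placode and 73.3 and 77.1 around it, a change of -0.91 with an adjusted p of 0.0558.

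At E9.5 to E10.5 the otic vesicle and the early cochlear and vestibular parts were compared with the pooled tissue of the same days. Here 8 of the 31 Hox genes were lower in the inner ear and none was higher, beside 3.66% of all genes lower, 2.82% higher and 6.48% called in either direction. They were the 5 genes of E9 joined by Hoxa5, Hoxb4 and Hoxb5. The median change was -0.21 over the Hox genes and 0.00 over all genes, and 15 of 31 had an unadjusted p under 0.05.

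Hoxb3 had the largest change of the 31. Its 8 inner ear arrays ran from 14.7 to 30.1 with a median of 20.5, and the non-inner ear arrays read 638 and 649. The change was -4.53 ± 0.18 (SE, n = 8 against 2, limma adjusted p = 3.42e-21).

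Hoxb1 was at the floor on 4 of the 8 inner ear arrays, with a median of 15.7 and a highest value of 30.9 in a vesicle at E9.5. Around the ear it read 456 and 528. The change was -4.22 ± 0.17 (SE, n = 8 against 2, limma adjusted p = 3.42e-21), and the groups lay far apart.

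Hoxc4 was at the floor on 7 of the 8 inner ear arrays, the other being a vesicle at E9.5 with 16.0, and read 266 and 271 around the ear. Its change was -3.66 ± 0.16 (SE, n = 8 against 2, limma adjusted p = 6.58e-20). Hoxa2 ran from 10.0 to 23.6 in the inner ear with a median of 14.54 and read 153 and 183 around it, a change of -2.82 ± 0.12 (SE, n = 8 against 2, limma adjusted p = 2.06e-20). Neither gene overlapped between the tissues.

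Hoxa5, a gene of the cervical and thoracic axis, ran from 10.0 to 41.3 in the inner ear with a median of 22.4 and read 108 and 88.9 around it, a change of -1.84 ± 0.20 (SE, limma adjusted p = 3.33e-09). Hoxb4, of the caudal hindbrain, ran from 21.4 to 51.5 with a median of 37.9 and read 132 and 138 around it. Its change was -1.83 ± 0.27 (SE, limma adjusted p = 1.46e-06), and a second, dimmer Hoxb4 probe set gave -0.74, short of the threshold. Both genes were lower on every inner ear array than on either non-inner ear array.

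Hoxb2 and Hoxb5 were closest to the threshold. Hoxb2 ran from 25.2 to 112 in the inner ear with a median of 43.6 and read 81.8 and 131 around it, so that its groups overlapped, through a vesicle at E9.5. Its change was -1.09 ± 0.23 (SE, limma adjusted p = 0.000438). Hoxb5 ran from 10.0 to 18.3, with 4 of 8 arrays at the floor, against 32.2 and 42.0, a change of -1.03 ± 0.17 (SE, limma adjusted p = 9.24e-06). Without the second non-inner ear array, the changes were -0.78 for Hoxb2 (adjusted p = 0.079) and -0.89 for Hoxb5, and without normalization between arrays they were -0.77 and -0.90. With an adjusted p under 0.05 but a change under 1, Hoxa10 was higher in the inner ear, at 0.57 (adjusted p = 0.0338), and Hoxa9, Hoxb9 and Hoxa11 were lower, at -0.52, -0.44 and -0.37.

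From E9 to E9.5-E10.5 the difference between the tissues grew for 3 of the 31 Hox genes, with 2.11% of all genes going the same way, 2.55% the other way and 4.66% in either direction: Hoxb1 by -1.65 ± 0.27, Hoxb3 by -1.21 ± 0.29 and Hoxc4 by -1.15 ± 0.26 (SE). Hoxb1 moved mainly on the inner ear side, and Hoxb3 and Hoxc4 moved on the side of the surrounding tissue. Fitted on the groups of this comparison alone, Hoxb1 and Hoxc4 had limma adjusted p-values of 0.115 and 0.094 and were not called. Leaving out the first placode array reduced the Hoxb1 value to -0.99, and leaving out the first non-inner ear array at E9 reduced the Hoxc4 value to -0.66 (adjusted p = 0.119).

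**Figure D2:**
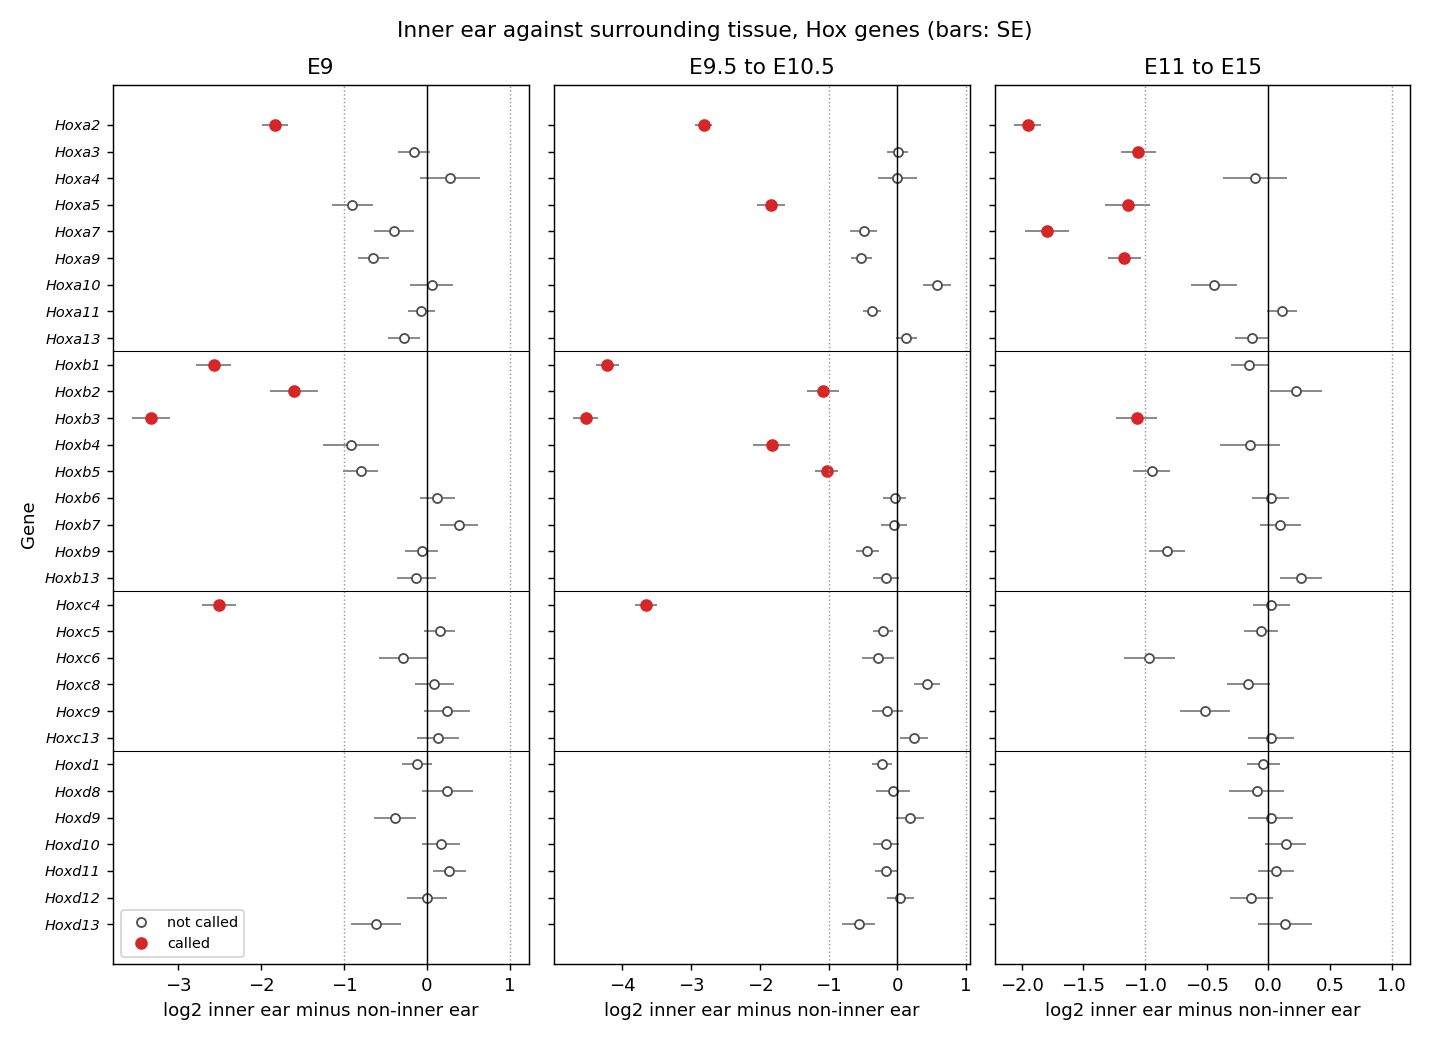
The log2 difference of inner ear minus non-inner ear tissue is plotted for each of the 31 Hox genes in 3 periods, with bars for the SE, filled red points for called genes and dotted lines at -1 and 1; the horizontal scales of the 3 panels differ. All called points lie to the left of zero, and Hoxb1 and Hoxb3 reach -4.22 and -4.53 at E9.5 to E10.5 but -0.15 and -1.07 at E11 to E15.

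At E11 to E15, 6 of the 31 Hox genes were lower in the inner ear and none was higher, beside 5.62% of all genes lower, 6.45% higher and 12.1% called in either direction. They were Hoxa2, Hoxa3, Hoxa5, Hoxa7, Hoxa9 and Hoxb3, so that Hoxa2 and Hoxb3 were the members lower in all 3 periods. The median change was -0.13 over the Hox genes and -0.01 over all genes, and 11 of 31 had an unadjusted p under 0.05.

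Hoxa2 ran from 10.0 to 22.7 on the 48 inner ear arrays, 32 of them at the floor, and read 90.9 and 79.5 around the ear. The groups did not overlap, and the change was -1.95 ± 0.11 (SE, n = 48 against 2, limma adjusted p = 2.48e-17).

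Hoxa7, a gene of the trunk, was bright in both tissues. It ran from 133 to 439 in the inner ear with a median of 237 and read 831 and 665 around it, a change of -1.79 ± 0.18 (SE, n = 48 against 2, limma adjusted p = 9.13e-11). At E9.5 to E10.5 its groups had overlapped, with a change of -0.49 (adjusted p = 0.0584). Within the inner ear it read 402 and 400 in the cochlear part and 555 and 465 in the vestibular part at E10.5, and 179 and 133 and then 158 and 164 in the same parts at E11, where the dispase time also changes.

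Hoxa9, another trunk gene, ran from 12.0 to 138 with a median of 89.7 and read 149 and 206 around the ear. Its change was -1.17 ± 0.14 (SE, limma adjusted p = 4.29e-09), with no overlap. Its second, dimmer probe set gave -0.09 (adjusted p = 0.736), so that the gene's change rests on 1 probe set. Hoxa5 ran from 10.0 to 35.5 with a median of 20.3 and read 51.5 and 64.4 around the ear, a change of -1.14 ± 0.18 (SE, limma adjusted p = 2.37e-06).

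Hoxa3, on the probe set that represents it, ran from 126 to 466 with a median of 289 and read 353 and 641 around the ear, so that its groups overlapped. Its change was -1.05 ± 0.14 (SE, limma adjusted p = 8.47e-08).

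Hoxb3 was at the floor on 25 of the 48 inner ear arrays and read 31.1 and 57.4 around the ear. The change was -1.07 ± 0.17 (SE, limma adjusted p = 1.39e-06), although 1 array, the first of utricle and ampullae at E13, reached 82.9 and made the groups overlap. The same array held the highest inner ear value of Hoxb5, 36.4. Its summed hindbrain markers were 1600 against 1784 on its replicate, and its summed neuron markers were 4891 against 4683; their part in the 2 Hox values was not tested. Without the second non-inner ear array, the changes were -0.74 for Hoxb3, -0.92 for Hoxa9 and -0.59 for Hoxa3. Without normalization between arrays Hoxa3 was at -0.83 and Hoxa9 at -0.9957, and neither was called, and with 64 added before the logarithm in place of 16, which shrinks dim genes, only Hoxa2 and Hoxa7 were called.

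Hoxb1, Hoxb2, Hoxb4, Hoxb5 and Hoxc4 were called at E9.5 to E10.5 or before but not at E11 to E15. Hoxb5, at -0.94, was close to the threshold. The late changes of the others were -0.15 for Hoxb1, 0.22 for Hoxb2, -0.15 for Hoxb4 and 0.03 for Hoxc4. Hoxb1 and Hoxc4 were then mostly at or near the floor in both tissues, so that equal levels cannot be read from their values. Hoxc4 was off the floor on 1 of the 48 late inner ear arrays, the first cochlea array of E13, with 49.6. Just short of the threshold were Hoxc6 at -0.96, Hoxb5 at -0.94 and Hoxb9 at -0.82, each with an adjusted p under 0.05.

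The change of the difference between the last 2 periods was tested itself, and 8 of the 31 Hox genes were called, 5 up and 3 down, beside 3.92% of all genes up, 3.03% down and 6.96% in either direction. Of the 31, 15 had an unadjusted p under 0.05. The 5 genes called up moved up relative to their surroundings, where all 5 fell. There Hoxb1 reached 10.0 and 18.0, and Hoxc4 was at the floor on both arrays. Rising in this relative sense were Hoxb1 by 4.07 ± 0.23, Hoxc4 by 3.68 ± 0.22 and Hoxb3 by 3.47 ± 0.25 (SE). Hoxb4 followed with 1.68 ± 0.36 and Hoxb2 with 1.31 ± 0.31 (SE). A second Hoxb4 probe set gave 0.46 (adjusted p = 0.351), so that the Hoxb4 call rests on 1 probe set. Falling, that is becoming lower in the inner ear relative to its surroundings, were Hoxa7 by -1.30 ± 0.26 and Hoxa10 by -1.01 ± 0.27 (SE). Hoxa3 was called at -1.06 ± 0.21 (SE) on its representing probe set and went the opposite way, by 1.97, on its other one. The 3 calls of Hoxb2, Hoxa3 and Hoxa10 depended on single arrays. Without the second non-inner ear array of E9.5 to E10.5, Hoxb2 was 1.00 but no longer called, and Hoxa3 was -0.81. Without the second non-inner ear array of E11 to E15, Hoxa3 and Hoxa10 were -0.60 and -0.57. Hoxa3 was -0.96 without the E11 arrays. The Hoxa10 value lay at the threshold, and its call was lost without any 1 of 9 of the 60 arrays, inner ear arrays among them.

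The changes of the surrounding tissue over time were read on the non-inner ear arrays directly, which are the same arrays as in the comparisons above. From E9 to E9.5-E10.5, 3 of the 31 Hox genes were called, 2 up and 1 down, beside 2.73% of all genes up, 1.55% down and 4.28% in either direction; 11 of 31 had an unadjusted p under 0.05. Hoxb3 rose from 340 and 308 to 638 and 649 (1.05 ± 0.23, SE, limma adjusted p = 0.00118), Hoxc4 rose from 76.0 and 161 to 266 and 271 (1.18 ± 0.21, SE, adjusted p = 8.13e-05), and Hoxb2 fell from 273 and 227 to 81.8 and 131 (-1.16 ± 0.29, SE, adjusted p = 0.00449). None of the 3 overlapped between the periods, but each was lost when 1 array was left out: without the first array of E9, Hoxc4 was at 0.70 and Hoxb2 had an adjusted p of 0.0609; without the second, Hoxb3 was at 0.98 (and at 0.96 without normalization between arrays); and without the first array of E9.5 to E10.5, Hoxb2 was at -0.86. Those 2 later pools differ in make-up, with 14 of 21 pieces from E10 in the first and 12 of 24 from E9.5 in the second. On the non-inner ear arrays of these periods alone, Hoxc4 and Hoxb2 had limma adjusted p-values of 0.138 and 0.0777 and were not called.

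From E9.5-E10.5 to E11-E15, 7 of the 31 Hox genes were called in non-inner ear tissue, 5 down and 2 up, beside 3.17% of all genes down, 4.16% up and 7.33% in either direction; 11 of 31 had an unadjusted p under 0.05. Hoxb1 fell from 456 and 528 to 10.0 and 18.0, with 1 late array at the floor (-4.36 ± 0.21, SE, n = 2 against 2, limma adjusted p = 1.07e-18). Hoxb3 fell from 638 and 649 to 31.1 and 57.4 (-3.71 ± 0.23, SE, adjusted p = 1.89e-15). Hoxc4 fell from 266 and 271 to the floor on both late arrays, which is at least 26.8-fold lower on the deposited scale (fitted change -3.69 ± 0.21, SE, adjusted p = 8.72e-17). These 3 genes thus went from 266 or more to at most 57.4.

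Hoxb2 and Hoxb4 also fell. Hoxb2 went from 81.8 and 131 to 24.1 and 15.6 (-1.91 ± 0.29, SE, limma adjusted p = 4.23e-06), and Hoxb4 went from 132 and 138 to 32.6 and 39.2 (-1.71 ± 0.34, SE, adjusted p = 0.000198). The dimmer Hoxb4 probe set gave -0.62 (adjusted p = 0.127). Hoxb2, fitted on the arrays of these pools alone, had a limma adjusted p of 0.0617 and was not called. Hoxa2 went from 153 and 183 to 90.9 and 79.5 and Hoxa5 from 108 and 88.9 to 51.5 and 64.4, changes of -0.97 and -0.74 that were under the size threshold.

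Hoxa10, and Hoxa3 on its representing probe set, were higher in the late pool; the other Hoxa3 probe set fell by 2.07 on the log2 scale. Hoxa10, a gene of the posterior trunk and hindlimb, read 10.0 and 14.3 and then 27.2 and 63.0 (1.10 ± 0.25, SE, limma adjusted p = 0.00131), and Hoxa3 read 256 and 187 and then 353 and 641 (1.07 ± 0.19, SE, adjusted p = 7.4e-05). Their late arrays were far apart, and without the second one the changes were 0.65 for Hoxa10 and 0.60 for Hoxa3. Without the first array of E9.5 to E10.5, Hoxa10 was at 0.96, and without the second, Hoxa3 was at 0.82. With a fit on the arrays of these pools alone, the limma adjusted p-values were 0.168 for Hoxa10 and 0.21 for Hoxa3.

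**Figure D3:**
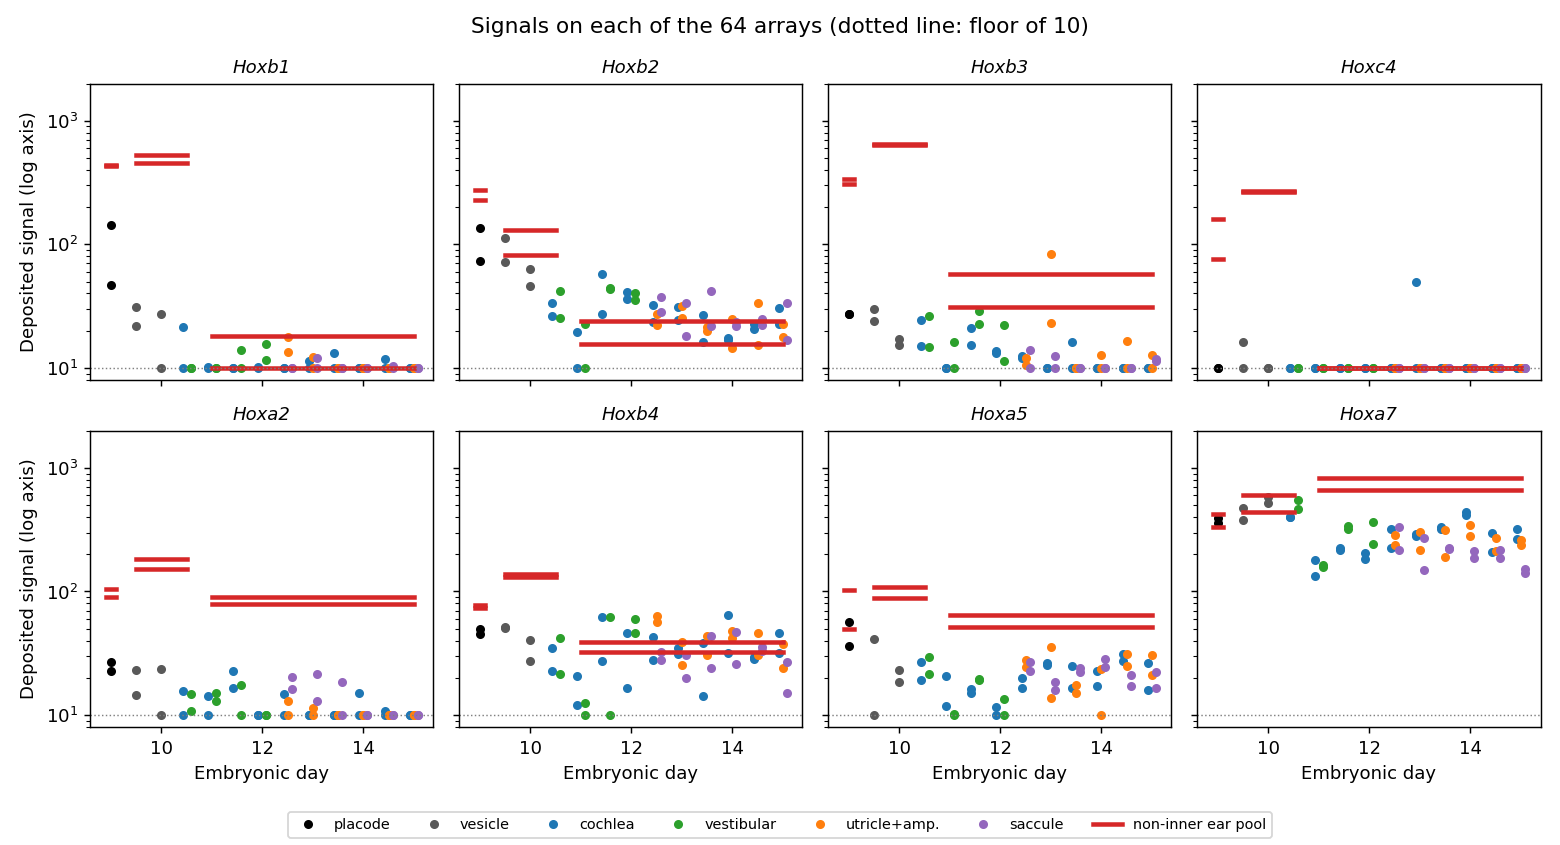
Deposited signals (log axis) of 8 Hox genes are plotted against embryonic day for all 64 arrays; points are inner ear arrays coloured by tissue, red bars are the non-inner ear arrays drawn over the days they pool, and the dotted line is the floor of 10. The red bars of Hoxb1, Hoxb3 and Hoxc4 drop from 266 or more at E9.5 to E10.5 to 57.4 or less at E11 to E15, while those of Hoxa7 stand at 665 and 831 at the end.

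Markers of other cell types moved with the tissue comparison. As a background, 2.44%, 3.66% and 5.62% of all genes were lower in the inner ear in the 3 periods. Hindbrain and neural tube markers were lower in the inner ear for 4, 5 and 4 of 14 in the 3 periods, led by Zic5 (-3.27 ± 0.55, -3.98 ± 0.44 and -4.58 ± 0.39, SE), Zic1 and Fabp7. Neuron markers were lower for 4, 9 and 9 of 12, with 1 of 12 higher at E11 to E15, periotic mesenchyme markers for 8, 8 and 11 of 14, and endothelium markers for 3, 3 and 4 of 8. Red blood cell markers were lower for 0, 3 and 3 of 6: the embryonic globin genes Hba-x (-2.65 and -3.62), Hbb-bh1 (-2.26 and -3.81) and Hbb-y (-1.21 and -2.59) in the last 2 periods. From E9 to E9.5-E10.5 the tissue difference of both Hba-x and Hbb-bh1 changed by -1.95. The red blood cell markers Alas2, Klf1 and Slc4a1 were not called, at -0.39, -0.33 and -0.28 at E9.5 to E10.5. At E11 to E15 they were at -0.58, 0.21 and 0.26. Macrophage markers were lower for 2, 2 and 3 of 8. The summed hindbrain marker signal of the non-inner ear arrays was 6337 to 7074 at E9, 11290 to 11872 at E9.5 to E10.5 and 11985 to 12563 at E11 to E15, against 1907 to 2097 in the placode and at most 4499 elsewhere in the inner ear. No hindbrain marker was at the floor on both arrays of the E9 pool; Olig2 was in the next pool, and Sox1 in the last.

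The same sums did not all move alike between the pools in which Hoxb1, Hoxb2, Hoxb3, Hoxb4 and Hoxc4 fell. In the later of these pools 4.16% of all genes were higher and 3.17% lower. Between the last 2 non-inner ear pools, the summed mesenchyme markers went from 5138 and 6101 to 15300 and 16949, with 6 of 14 markers higher and 1 lower. Summed cartilage markers went from 1368 and 1470 to 15010 and 16914, with 6 of 8 higher, and 4 of 7 skeletal muscle markers were higher. The summed neuron markers were 22907 and 26098 and then 20687 and 21592, with 2 of 12 lower. Summed signals of the 5 neural crest markers stayed between 467 and 522 in all 6 pools. Of these markers only Sox10, a gene that otic epithelium also expresses, was called between the tissues, and it was higher in the inner ear by 1.67 at E9.5 to E10.5 and 2.29 at E11 to E15; Ets1, Tfap2a, Snai1 and Foxd3 were at -0.60, -0.35, -0.29 and -0.10 at E11 to E15. The part of these cell types in the Hox changes was not tested.

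Within the inner ear, few Hox genes were called over time or between organs. From the placode at E9 to the vesicle at E10, 1 of the 31 Hox genes was called, beside 1.16% of all genes lower, 2.77% higher and 3.93% in either direction: Hoxb1 fell from 143 and 46.4 to 27.1 and 10.0, with 21.8 and 30.9 at E9.5 between them (-1.45 ± 0.21, SE, n = 2 against 2, limma adjusted p = 4.84e-06). Without the first placode array it was -0.79, which ended the call, and without the second it was -2.11. When the fit held only the placode and E10 vesicle arrays, the limma adjusted p of Hoxb1 was 0.223. Hoxb2 read 136 and 72.9, then 71.9 and 112, then 63.0 and 45.6, a change of -0.75 with an adjusted p of 0.0715. Hoxa9 went from 96.6 and 108 to 162 and 185, a change of 0.67 that was under the size threshold (adjusted p = 0.0111).

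Over the later stages, 1 of the 31 Hox genes was called in the cochlea from E10.5 to E15 (Hoxa3, described below), beside 6.16% of all genes rising, 5.23% falling and 11.4% in either direction, and 10 of 31 had an unadjusted p under 0.05. By limma, 0 of 31 were called over time in the vestibular part from E10.5 to E12 (3.07% of all genes; 2 of 31 at an unadjusted p under 0.05), in the utricle and ampullae from E12.5 to E15 (5.73%; 6 of 31) or in the saccule over the same days (5.48%; 5 of 31). Hoxa9 in the cochlea came to 0.80 ± 0.13 (SE), with 12.0 and 13.1 at E11 as its lowest values, on arrays that hold many floor values. Hoxa7 in the saccule went from 217 and 334 at E12.5 to 142 and 152 at E15, a fitted change of -0.66 ± 0.21 (SE, adjusted p = 0.0165).

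Between organs at matched stages no Hox gene was called. By limma, 0 of 31 were called between cochlea and vestibular part (1.07% of all genes; 3 of 31 at an unadjusted p under 0.05), between cochlea and utricle with ampullae (2.32%; 3 of 31), between cochlea and saccule (2.85%; 8 of 31) and between saccule and utricle with ampullae (2.02%; 5 of 31). The largest of these differences was that of Hoxa7, higher in the cochlea than in the saccule by 0.63 ± 0.10 (SE, limma adjusted p = 2.71e-06). Over E12.5 to E15, Hoxa7 ran from 207 to 439 in the cochlea and from 142 to 334 in the saccule, and so overlapped. Hoxa7 was also higher in the cochlea than in the utricle with ampullae by 0.30 ± 0.10 and lower in the saccule than there by -0.32 ± 0.10 (SE), in the order cochlea, utricle with ampullae, saccule.

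The remaining 19 members were called in none of the comparisons of tissues, of non-inner ear tissue over time or of organs: Hoxa4, Hoxa11 and Hoxa13; Hoxb6, Hoxb7, Hoxb9 and Hoxb13; Hoxc5, Hoxc6, Hoxc8, Hoxc9 and Hoxc13; and Hoxd1 and Hoxd8 to Hoxd13. Their inner ear changes ran from -0.61 to 0.39 at E9, from -0.57 to 0.43 at E9.5 to E10.5 and from -0.96 to 0.27 at E11 to E15. On the representing probe sets of all 19, the 6 non-inner ear values lay within the range of the 58 inner ear values. The 58 are the larger set and span all organs and stages, so that this says little about a difference in a given period. The dimmer Hoxa4 probe set read 99.3 on the first late non-inner ear array and at most 78.4 in the inner ear. Brightest against the array medians was Hoxc6, with 52.3 to 309 in the inner ear and 166 to 262 around it.

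Hoxb9 ran from 44.3 to 162 in the inner ear and from 80.6 to 157 around it, and Hoxa11 ran from 38.4 to 116 and from 48.1 to 89.9. Hoxd8 ran from 24.1 to 112 in the inner ear and was at or above the array median on 9 of 58 arrays. Dimmest were Hoxd12, at the floor on 46 of 58 inner ear and 5 of 6 non-inner ear arrays, and Hoxa13, at the floor on 23 and 2, with no value above 23.0. Hoxd12 reached 54.1 and 39.3 on the first vestibular arrays of E11 and E11.5, where the replicate was at 10.0 each time. Hoxd1 ran from 10.0 to 33.0 in the inner ear and from 13.7 to 22.5 around it. It was the only gene at the 3′ end of cluster d with a probe set of its own. Hoxd3 and Hoxd4, also at that end, shared probe sets that differed strongly between the tissues and are described separately.

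Probe sets of 1 gene disagreed for Hoxa3, which acts in the third branchial arch and the caudal hindbrain. The representing probe set was bright and even: it read 312 and 270 in the placode, 269 and 213 around it, and 126 to 466 in the inner ear as a whole. The other read 37.0 and 54.0 in the placode, then 88.8 and 84.4 in non-inner ear tissue at E9, 169 and 174 at E9.5 to E10.5 and 32.5 and 37.1 at E11 to E15. It was at the floor on 21 of 58 inner ear arrays, and its highest value there was 54.0.

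The other Hoxa3 probe set thus had the course of Hoxb3 and Hoxb4, and the representing one did not. Fitted over all 22626 probe sets, it was lower in the inner ear by -1.14 ± 0.22 at E9, -2.77 ± 0.18 at E9.5 to E10.5 and -0.79 ± 0.16 at E11 to E15 (SE), and between the last 2 non-inner ear pools it went opposite to the representing one. In the cochlea the representing probe set rose by 1.11 ± 0.14 from E10.5 to E15 (SE, limma adjusted p = 1.56e-08), from 235 and 185 through 126 and 130 at E11 to 414 and 319. That call was lost without the E11 arrays (0.92) and without the E14 arrays (0.96), and the other probe set went the opposite way (-0.32, adjusted p = 0.0976). The probe sets thus gave opposite directions over time, and the changes over time given above for Hoxa3 are those of its representing probe set alone. Hoxa4 differed between its probe sets too: the dimmer one was lower in the inner ear at E11 to E15 by -1.33 ± 0.28 (SE), and the representing one by -0.11.

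**Figure D4:**
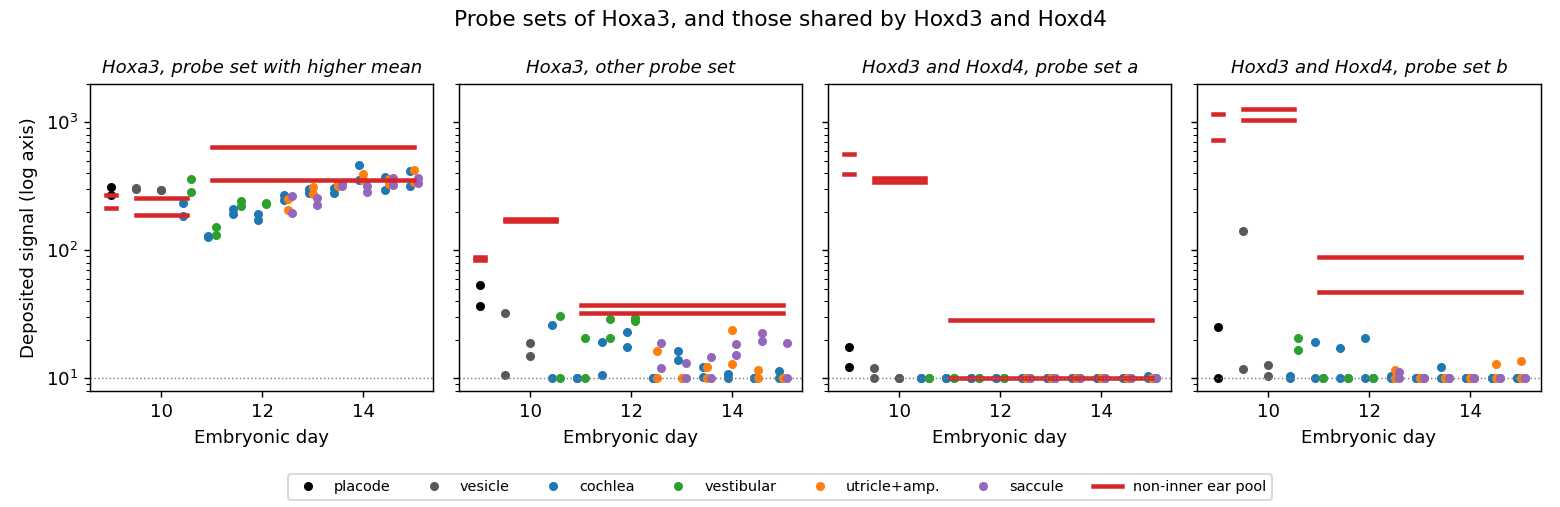
Deposited signals (log axis) against embryonic day for the 2 probe sets of Hoxa3 and the 2 probe sets that carry the symbols of Hoxd3 and Hoxd4, drawn as in the plot of 8 genes. The non-inner ear bars of the other Hoxa3 probe set fall from 169 and 174 to 32.5 and 37.1, while those of the one with the higher mean stand at 353 and 641 at the end.

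Cofactors of the TALE class, the Pbx, Meis and Pknox proteins that bind DNA with Hox proteins, were lower in the inner ear for 2 of 8 at E9, 3 of 8 at E9.5 to E10.5 and 2 of 8 at E11 to E15, with none higher. Over all genes, the shares lower were 2.44%, 3.66% and 5.62%. Meis1 changed by -1.25 ± 0.20, -2.60 ± 0.16 and -2.04 ± 0.14 (SE) in the 3 periods. Meis3 was lower by -1.43 ± 0.44 at E9 and -1.46 ± 0.35 at E9.5 to E10.5, and Meis2 by -1.15 ± 0.15 at E9.5 to E10.5 and -1.16 ± 0.13 at E11 to E15 (SE). No Pbx gene was called in these comparisons. In non-inner ear tissue Meis3 fell by 1.26 on the log2 scale between the last 2 pools, as the one member of the list called there. Between these pools 7.33% of all genes were called.

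Among regulators of Hox genes in the hindbrain and along the axis, 1 of 8 was lower in the inner ear at E9, 0 of 8 at E9.5 to E10.5 and 1 of 8 at E11 to E15. The shares of all genes lower in these periods were 2.44%, 3.66% and 5.62%. Egr2 (Krox20), which marks rhombomeres 3 and 5 and switches on Hoxa2 and Hoxb2 there, was lower in the placode by -1.67 ± 0.14 (SE, limma adjusted p = 3.52e-11). In non-inner ear tissue it fell by 2.00 on the log2 scale from E9 to E9.5-E10.5. Of the genes it acts on, Hoxb2 fell between these pools, a call lost without either of 2 single arrays as given above, and Hoxa2 went from 104 and 90.1 to 153 and 183. Whether these changes are linked was not tested. Fgf3 was lower in the inner ear by -1.34 at E11 to E15, and rose by 1.23 in non-inner ear tissue between the last 2 pools.

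Retinoic acid switches on Hox genes at the 3′ ends of the clusters. Of 14 genes of its synthesis, degradation and receptors, 2 were lower in the placode, the receptor Rarb (-1.36 ± 0.27, SE) and the degrading enzyme Cyp26a1 (-1.31 ± 0.34, SE). At E9.5 to E10.5, 3 were higher in the inner ear: the synthesising enzymes Aldh1a1 (2.14 ± 0.21, SE) and Aldh1a3 (1.44 ± 0.21, SE), both at the floor around the ear, so that their fitted changes depend on the added 16, and Rdh10 (1.12). At E11 to E15, 3 were higher and 2 lower, among them Aldh1a3 (4.23 ± 0.19, SE), Crabp1, a binding protein (-3.12 ± 0.32, SE), and Cyp26a1 (-1.56 ± 0.24, SE). Beside these counts, 2.44% of all genes were lower at E9 and 2.82% were higher at E9.5 to E10.5. At E11 to E15, 6.45% were higher and 5.62% lower.

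Of the genes next to the Hox clusters, 0 of 17 were called at E9 or at E9.5 to E10.5 by limma, and 4 of 17 were higher in the inner ear at E11 to E15, led by Nfe2 (1.68), Mtx2 (1.65) and Nfe2l3 (1.13). The shares of all genes called were 4.44%, 6.48% and 12.1% in the 3 periods, with 6.45% higher at E11 to E15. Of 19 Polycomb and trithorax genes, which keep Hox genes off or on, 0 were called by limma between the tissues in any of the 3 periods. In non-inner ear tissue Jarid2 rose by 1.07 from E9 to E9.5-E10.5, as the one gene of that list called over time there. Between those pools 4.28% of all genes were called.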

How the data were processed

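Pooled tissue of 32 groups was hybridised to 64 Affymetrix arrays. The authors' deposited values are linear MAS5 signals (intensity), per the submitters' processing notes, with a lowest value of 10; no label states how they were scaled. Probe sets were named from the platform annotation: 20380 of 22626 carry 1 symbol, 691 several and 1555 none. Signals were quantile-normalised, 16 was added and log2 taken, with no filter on low values, so that every member is tested. A gene took its probe set with the highest mean. limma 3.58.1 (R 4.3.3) fitted 1 coefficient per group with a trended prior and 32 residual degrees of freedom; p-values were adjusted by Benjamini-Hochberg over 12393 genes. Windows over several stages weigh stages equally; trends are least-squares slopes times the days spanned. The script was tested on simulated data.

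The members and lists were chosen with earlier results of these data known. Every member is accounted for; those called between tissues, in non-inner ear tissue over time or between organs are given per array. Of other lists, up to 3 called genes with the largest change per comparison are named. Replicates were separate pools from different litters, 2 per group. The p-values of a gene rest on a single spread between such pools, estimated over all groups. Arrays at the floor show no spread. For genes at the floor on most arrays, such as Hoxc4, the SE and p-values can therefore understate the spread of the groups off the floor. Organs of a stage may share embryos, which the labels do not settle. The number of arrays limits the precision. Deposited scaling, pseudocounts, filters, probe set rules, array weights, a replicate block (also as a random block, added after seeing the data) and leaving out arrays or stages were tried as alternatives.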

Additional observations from a re-analysis of the deposited data

Results flagged for a closer look

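The difference between inner ear and non-inner ear tissue changed between periods for 8 Hox genes, by limma's test of the change itself over all 12393 genes. From E9 to E9.5-E10.5 the changes were -1.65 for Hoxb1, -1.21 for Hoxb3 and -1.15 for Hoxc4. From E9.5-E10.5 to E11-E15 they were 4.07 for Hoxb1, 3.68 for Hoxc4, 3.47 for Hoxb3, 1.68 for Hoxb4 and 1.31 for Hoxb2, and -1.30 for Hoxa7, -1.06 for Hoxa3 and -1.01 for Hoxa10. The Hoxa3 value is that of its representing probe set; its other probe set gave 1.97 and the mean of both 0.46, so that its direction is not settled. The second Hoxb4 probe set gave 0.46 with an adjusted p of 0.351. The periods have non-inner ear pools of different stages, and the dispase time differs from E11 on.

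The 2 probe sets that carry the symbols of both Hoxd3 and Hoxd4 were outside the 31 members and gave strong signal around the ear. The first read 390 and 567 in non-inner ear tissue at E9, 368 and 342 at E9.5 to E10.5 and 10.0 and 28.6 at E11 to E15, and was at the floor on 54 of 58 inner ear arrays. The second read 720 and 1160, then 1280 and 1030, then 47.6 and 88.6, and was at the floor on 40 of 58. Over all probe sets, the inner ear differences were -4.27 and -5.08 at E9 and -4.08 and -5.30 at E9.5 to E10.5, and that of the second was -1.68 at E11 to E15. A single inner ear array, the first vesicle at E9.5, reached 141 on the second probe set while its replicate read 11.8. Which of the 2 genes the signal comes from was not tested.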

How the results depend on the processing

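Leaving out 1 array at a time left 287 counts of called Hox genes within 1.5 times of the reported one and moved 3 further; 958 single gene values kept their call and 28 lost it. Under the other alternatives 163 counts stayed and 27 moved, and 410 gene values kept their call, 48 lost it and 5 reversed. Leaving out 1 array at a time, the counts ranged from 5 to 6 at E9, 6 to 8 at E9.5 to E10.5, 4 to 6 at E11 to E15, 2 to 5 and 6 to 8 for the changes between periods, 2 to 3 and 5 to 8 for non-inner ear tissue over time, 0 to 2 from placode to vesicle, 1 to 1 for the cochlea over time and 0 to 0 for the other comparisons; the highest count of 5 came without the first vesicle array of E9.5. With the values as deposited, 5 genes changed from E9 to E9.5-E10.5 and 2 in the cochlea over time. With 1 added before the logarithm, 2 were called in the cochlea and 1 in the utricle and ampullae; with 64 added, 2 were called at E11 to E15, 1 and 5 for the changes between periods, and 0 each for non-inner ear tissue to E9.5-E10.5, placode to vesicle and the cochlea. A filter that asks for signal on 16 arrays left 6 members, of which 3 were called at E11 to E15, 2 in the late change and 1 in late non-inner ear tissue, and 0 at E9, at E9.5 to E10.5, in the early change, in early non-inner ear tissue and from placode to vesicle, because the genes that mark non-inner ear tissue on 6 arrays were removed. Averaging a gene's probe sets called 0 in the cochlea. Fitting only the groups of a comparison, with the spread of those groups and fewer residual degrees of freedom, called 3 at E9 and 1 in the early change. It called 1 and 4 in non-inner ear tissue and 0 from placode to vesicle. In the cochlea 0 were called without E11, 0 without E14 and 2 from E11 to E15; the cause was not tested. The reversed values were all of Hoxa3: 0.46 (late change) and -0.50 (late non-inner ear tissue) for the mean of its probe sets, and 1.97, -2.07 and -0.32 (cochlea) for its other probe set. Whether replicate numbers mark shared pools is not given by the labels: same-numbered deviations of organs at a stage correlated above 0.1 in 16 of 22 pairs (range -0.42 to 0.49) and in all 12 pairs from E12.5 to E14, and pool sizes were equal in 11 of 20 sets of organ arrays with the same stage and number. With the number as a block (per stage for organs) all 16 counts and all 42 gene values kept their side, with 5 called at E9, 8 at E9.5 to E10.5 and 6 at E11 to E15; with stage and number as a random block, chosen after seeing the data (correlation 0.19), they did so again. Depth is not known for arrays; signals near the floor of 10 have no order.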
